A study of Mus musculus with 13 samples.

Results

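The Serpinb9 family of the mouse comprises serine protease inhibitors of clade B, and 8 protein-coding members were found among the 55642 genes of the count table: Serpinb9, Serpinb9b, Serpinb9c, Serpinb9d, Serpinb9e, Serpinb9f, Serpinb9g and Serpinb9h. Members were taken by symbol, as every protein-coding gene whose symbol starts with Serpinb9. The family itself was chosen by its readout, since several members had been seen to be higher after YBX3 depletion in earlier results from these libraries. Fold changes between YBX3 KD and control KD are therefore given as a description with no p-value for a member. How many members passed a threshold in that contrast is given beside the share of all genes that did, and nothing is read from those counts. The tests reported for members are those of the change with time in differentiation medium and of the difference of the YBX3 KD effect between time points.

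The cells were C2C12, a mouse myoblast line in established use that fuses into myotubes after a change of serum. Cells were reverse transfected with nontargeting siRNAs (siNT, control KD) or siRNAs against YBX3 (siYBX3, YBX3 KD), a DNA- and RNA-binding protein with a cold shock domain. Proliferating myoblasts (0 day) stayed in growth medium with fetal bovine serum, and differentiating myoblasts (1 day) were moved to medium with horse serum, both being collected 48 h after transfection. Libraries numbered 4 for control KD at 0 day (replicates A to D), 4 for YBX3 KD at 0 day (A to D), 2 for control KD at 1 day (C and D) and 3 for YBX3 KD at 1 day (B to D). All groups carried an siRNA, so untransfected cells were not part of the comparison. The titles call the libraries biological replicates, but do not say whether they were separate thaws or passages of the line.

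Serpins trap their target protease through an exposed reactive center loop near the carboxyl end of the protein. When the protease cuts the loop, the serpin changes shape and holds the enzyme in a covalent complex, so that the inhibitor is used up with its protease. Mouse Serpinb9 and its human counterpart inhibit granzyme B, the protease that cytotoxic T cells and natural killer cells deliver into target cells through pores of perforin, and act in the cytosol and nucleus of the cells that make them. The mouse has expanded this inhibitor into a cluster of tandem copies, and the proteases bound by the more recent copies are less well defined.

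In the GRCm39 assembly (GENCODE vM39) the cluster spans chromosome 13 from 33187233 to 33679987. The order along the chromosome is Serpinb9, Serpinb9b, Serpinb9c, Serpinb9d, Serpinb9e, Serpinb9f, Serpinb9h and Serpinb9g, with 7 members on the plus strand and 1, Serpinb9c, on the minus strand. The coding sequences of Serpinb9d to Serpinb9h were 94.2% to 99.1% identical over their 10 pairs, whereas the other 18 pairs of members were 74.4% to 85.3% identical. Shown first are the 90 bases that code for the hinge and the reactive center loop, because this stretch governs which protease an inhibitor can trap. Each lies within a coding exon, and capitals mark the codons of the hinge at the base of the loop:
Serpinb9 (chr13:33199676-33199765, plus strand): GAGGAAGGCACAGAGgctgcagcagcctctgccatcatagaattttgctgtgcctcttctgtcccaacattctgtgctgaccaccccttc
Serpinb9b (chr13:33223779-33223868, plus strand): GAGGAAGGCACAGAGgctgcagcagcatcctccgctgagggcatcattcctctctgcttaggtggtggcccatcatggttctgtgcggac
Serpinb9c (chr13:33334033-33334122, minus strand): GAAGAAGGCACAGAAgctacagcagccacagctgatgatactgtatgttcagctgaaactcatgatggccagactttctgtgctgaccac
Serpinb9d (chr13:33386906-33386995, plus strand): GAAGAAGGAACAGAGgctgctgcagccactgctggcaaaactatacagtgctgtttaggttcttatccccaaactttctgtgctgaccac
Serpinb9e (chr13:33443954-33444043, plus strand): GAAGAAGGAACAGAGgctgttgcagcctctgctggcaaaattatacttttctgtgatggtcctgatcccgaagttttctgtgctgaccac
Serpinb9f (chr13:33518474-33518563, plus strand): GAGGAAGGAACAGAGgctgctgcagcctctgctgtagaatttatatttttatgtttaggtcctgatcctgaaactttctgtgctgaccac
Serpinb9h (chr13:33588389-33588478, plus strand): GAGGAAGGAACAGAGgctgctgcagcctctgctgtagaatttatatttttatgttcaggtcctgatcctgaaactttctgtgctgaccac
Serpinb9g (chr13:33679104-33679193, plus strand): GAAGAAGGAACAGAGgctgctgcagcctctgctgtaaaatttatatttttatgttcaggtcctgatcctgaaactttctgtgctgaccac

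Serpinb9f and Serpinb9h differed at 1 of 90 bases, Serpinb9g and Serpinb9h at 2, and Serpinb9f and Serpinb9g at 3. Serpinb9d and Serpinb9e differed from each other at 14 bases and from those copies at 12 to 17. Reads from such copies can be hard to assign. Of all stretches of 85 bases in the canonical transcript, 0% of those of Serpinb9 and of Serpinb9b occurred in any transcript of another gene. This share was 12.7% for Serpinb9d, 15.3% for Serpinb9e, 41.9% for Serpinb9g, 60% for Serpinb9f and 70.4% for Serpinb9h. For Serpinb9c it was 17.4%, all of it shared with the pseudogene Gm11385. Values of Serpinb9f, Serpinb9g and Serpinb9h are thus uncertain as to how Salmon divided reads among the copies, and the sum of Serpinb9d to Serpinb9h is given beside them.

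The libraries held 33451547 to 71811371 estimated counts. Ybx3 fell from 311 ± 29.3 CPM (counts scaled to library size with TMM factors) in control KD (SD, n = 6) to 45.0 ± 13.2 CPM in YBX3 KD (SD, n = 7), or 14.5% of control KD. Its level matched the siRNA label of every library, which does not check the labels of time point and replicate. Within YBX3 KD the highest remaining Ybx3 level was 71.5 CPM, in replicate C at 1 day. The summed level of 6 myoblast markers was 199 to 233 CPM in control KD and 224 to 263 CPM under YBX3 KD at 0 day, and 210 to 226 and 191 to 220 CPM at 1 day. Of these markers, Cdh15, which encodes M-cadherin, lay at 99.6 to 163 CPM in all libraries, the myogenic factor Myf5 at 31.3 to 73.5 CPM and Des at 15.5 to 54.8 CPM. The other markers were low, with Myod1 at 0.601 to 3.32 CPM, Myog at 0.0523 to 3.46 CPM and the satellite cell factor Pax7 at most 0.179 CPM. Among 7 markers of cytotoxic lymphocytes 3 had a count in any library, and Gzma, Gzmb, Cd8a and Ncr1 were at 0 in all of them. Of 5 macrophage markers 4 had a count, and their summed level was 2.44 to 3.91 CPM in control KD and 4.02 to 5.55 CPM under YBX3 KD at 0 day, and 3.32 to 3.63 and 3.03 to 4.66 CPM at 1 day. The macrophage ranges were thus separate at 0 day, with YBX3 KD the higher, and overlapped at 1 day, and their part in the values of the family was not tested. Within that list Cd68 had 58 to 153 counts per library, Lyz2 11 to 103 and Csf1r 17 to 86. The pan-leukocyte gene Ptprc had at most 2 counts in a library and Adgre1 had 0. In bulk RNA, fewer cells expressing a gene and less RNA per cell cannot be told apart.

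Serpinb9, the granzyme B inhibitor, was the member with the highest level and the smallest change. In control KD it stood at 58.6, 54.1, 54.8 and 58.6 CPM at 0 day (replicates A to D) and at 66.6 and 63.9 CPM at 1 day (C and D). In YBX3 KD it stood at 60.9, 72.4, 71.6 and 88.4 CPM at 0 day and at 73.2, 66.2 and 68.1 CPM at 1 day (B to D). The groups were separate at 0 day, where each YBX3 KD library lay above each control KD library, but overlapped at 1 day. The fitted log2 fold change was 0.27 ± 0.09 (SE) over both time points, 0.38 ± 0.10 at 0 day and 0.08 ± 0.13 at 1 day. Over the 6 pairs of libraries with the same letter and time point, the ratio of YBX3 KD to control KD was 0.995 to 1.51.

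Serpinb9b, the neighbouring copy and the closest relative of Serpinb9 (85.3% identical in coding sequence), was 1.98-fold higher in YBX3 KD by the fit. Its control KD levels were 11.6, 10.3, 12.2 and 20.1 CPM at 0 day and 8.86 and 12.3 CPM at 1 day. With YBX3 KD they were 17.7, 24.5, 27.3 and 30.9 CPM at 0 day and 24.8, 11.8 and 32.6 CPM at 1 day. The ranges overlapped through replicate D of control KD at 0 day, which was high, and through replicates A at 0 day and C at 1 day of YBX3 KD, which were low. Even so, YBX3 KD was the higher library in 6 of 6 pairs of the same letter, by 1.34- to 2.65-fold, and the fitted log2 fold change was 0.98 ± 0.24. Of its 31-base stretches 5.21% occurred in other transcripts, and of its 85-base stretches 0%.

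Serpinb9c, the member on the minus strand, was a low-abundance member with a separate range in each siRNA group. Its counts in control KD were 13, 11, 21 and 22 at 0 day and 22 and 18 at 1 day, or 0.297, 0.251, 0.340, 0.679, 0.427 and 0.470 CPM. In YBX3 KD the counts were 40, 74, 36 and 63 at 0 day and 85, 38 and 67 at 1 day, or 0.848, 1.03, 0.804, 1.48, 1.5, 1.02 and 1.72 CPM. Every YBX3 KD library lay above every control KD library, with a log2 fold change of 1.55 ± 0.24. The pseudogene Gm11385, which shares sequence with it, had 0 counts in 12 libraries and 15 in the library with the lowest Serpinb9c level of YBX3 KD, replicate C at 0 day.

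Serpinb9e was the most abundant of the 5 near-identical copies, with no overlap between the siRNA groups. It stood at 3.60, 2.64, 3.56 and 5.62 CPM at 0 day and 5.02 and 4.60 CPM at 1 day in control KD. In YBX3 KD it stood at 10.7, 13.9, 16.5 and 23.1 CPM at 0 day and at 18.4, 8.73 and 17.4 CPM at 1 day. The lowest YBX3 KD library, replicate C at 1 day, was still above the highest control KD library, and the log2 fold change was 1.90 ± 0.24 (a mean of 4.17 ± 1.10 CPM, SD, n = 6, against 15.5 ± 4.85 CPM, SD, n = 7). In pairs of the same letter the ratio was 1.74 to 5.26.

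Serpinb9g showed the same separation with a wider spread. Control KD libraries held 1.05, 0.979, 0.986 and 1.73 CPM at 0 day and 1.73 and 3.24 CPM at 1 day. YBX3 KD libraries held 3.62, 4.95, 4.29 and 12.3 CPM at 0 day and 4.24, 3.63 and 7.06 CPM at 1 day. Replicate D was the highest library of each group, at both time points. The log2 fold change was 1.86 ± 0.38, with 2.44 ± 0.45 at 0 day and 1.02 ± 0.55 at 1 day.

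Serpinb9d and Serpinb9f were low-abundance copies. Serpinb9d had 14 to 34 counts (0.319 to 0.659 CPM) in the 6 control KD libraries and 31 to 124 counts (0.832 to 1.73 CPM) in the 7 YBX3 KD libraries, with no overlap and a log2 fold change of 1.27 ± 0.22. Serpinb9f had 19 to 38 counts (0.433 to 0.993 CPM) in control KD and 29 to 145 counts (0.779 to 3.41 CPM) in YBX3 KD. Its ranges overlapped through YBX3 KD replicate C at 1 day, and its log2 fold change was 1.41 ± 0.33. Leaving out YBX3 KD replicate D at 0 day, which held the 145 counts, gave a log2 fold change of 1.14.

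Serpinb9h was barely detected. Its counts in control KD were 2, 0, 9 and 6 at 0 day and 0 and 0 at 1 day. Those in YBX3 KD were 4, 16, 18 and 18 at 0 day and 10, 7 and 14 at 1 day. It passed the filter on low counts only through YBX3 KD, where 3 libraries were above the cutoff of 0.227 CPM against 0 of control KD, so a higher value in YBX3 KD was built into its being tested. At 1 day the mean of YBX3 KD was 0.241 CPM. This was 3.53 times the mean of 0.0683 CPM that control KD takes when each of its libraries is set to a floor of 3 counts. With 70.4% of its 85-base stretches shared, these counts are uncertain in how reads were divided.

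**Figure D1:**
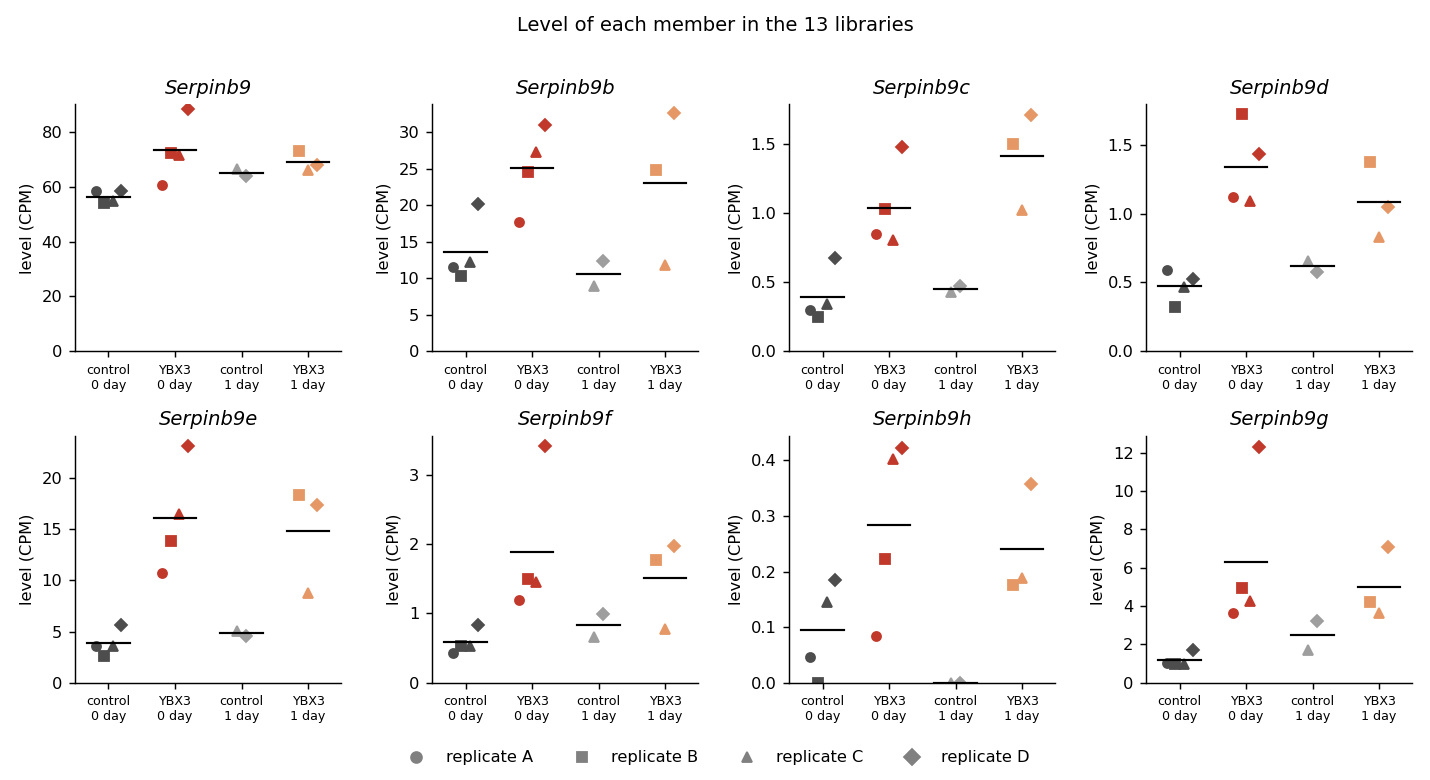
Level of each member in CPM for the 13 libraries, with 1 panel per member in chromosomal order, marker shapes for the replicate letters and lines for group means. Serpinb9c, Serpinb9d, Serpinb9e and Serpinb9g show all 7 YBX3 KD libraries above all 6 control KD libraries, whereas Serpinb9 at 1 day overlaps and Serpinb9h is near 0 in control KD.

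Of the 8 members, 4 (Serpinb9c, Serpinb9d, Serpinb9e and Serpinb9g) had all YBX3 KD libraries above all control KD libraries, a pattern held by 0.95% of the 16848 genes tested, against 1.08% for the reverse. In edgeR's quasi-likelihood test no member (0 of 8) reached the study's thresholds, an absolute fold change over 1.3 with an adjusted p under 0.001. There 0.113% of genes were called in either direction and 0.00594% were called higher. At an adjusted p under 0.05, 6 of 8 members were counted higher (all but Serpinb9 and Serpinb9h), with 1.5% of genes higher and 1.09% lower. The study itself set these thresholds on DESeq2 with independent hypothesis weighting. Run here without that weighting, DESeq2 at the study's thresholds called 4 of 8 higher (Serpinb9c, Serpinb9d, Serpinb9e and Serpinb9g), against 0.583% of genes. Under a block for the replicate letter, edgeR counted 7 of 8 at an adjusted p under 0.05, against 5.97% of genes, and DESeq2 called 6 of 8 at the study's thresholds, against 1.71%. The 7 included Serpinb9h, which passed the filter only through YBX3 KD, so that its higher value was built in. Within single time points at an adjusted p under 0.05, edgeR counted Serpinb9d, Serpinb9e and Serpinb9g, or 3 of 8, at 0 day (0.249% of genes) and 0 of 8 at 1 day (0.00594%). Under the block the count at 0 day was 5 of 8 (1.67% of genes), and Serpinb9g passed the study's thresholds there (0.00594% of genes called higher). Since the family was chosen on this contrast, nothing is read from these counts. They moved with single libraries: the count at an adjusted p under 0.05 was 3 rather than 6 without control KD replicate A, B or C at 0 day or without control KD replicate C at 1 day, 7 without control KD replicate D at 0 day, and 4 to 6 without any other single library. That count of 7 also included Serpinb9h.

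Summing the copies removes the division of reads among them. The sum of Serpinb9d to Serpinb9h was 7.04 ± 2.01 CPM in control KD (SD, n = 6) and 24.5 ± 8.63 CPM in YBX3 KD (SD, n = 7), with no overlap and a log2 fold change of 1.81 ± 0.25. The sum over all 8 members was 79.4 ± 7.78 CPM and 121 ± 22.9 CPM, a log2 fold change of 0.61 ± 0.12, and Serpinb9 supplied most of the counts in that sum. Fold changes ran from 1.2-fold for Serpinb9 to 3.74-fold for Serpinb9e among members above the filter in all libraries.

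**Figure D2:**
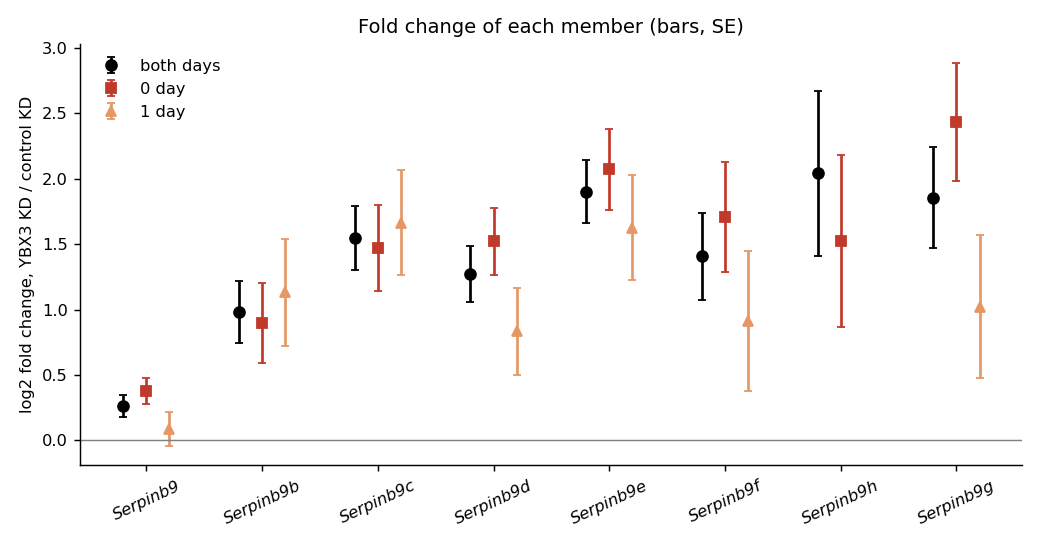
Log2 fold change of each member between YBX3 KD and control KD over both time points, at 0 day and at 1 day, with bars for SE. Serpinb9 sits nearest 0 (0.27 over both time points) and Serpinb9e is at 1.90, and Serpinb9h at 1 day is left out because its control KD libraries held 0 counts.

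Levels of different members are compared here per kilobase of the canonical transcript (CPM per kb). In control KD the order was Serpinb9 (17.5 ± 1.46, SD, n = 6), Serpinb9b (3.86 ± 1.21), Serpinb9e (2.17 ± 0.57), Serpinb9g (0.840 ± 0.452), Serpinb9d (0.419 ± 0.0952), Serpinb9f (0.347 ± 0.111), Serpinb9c (0.216 ± 0.0813) and Serpinb9h (0.0337 ± 0.0443). Serpinb9 stood clear of Serpinb9b in all libraries and Serpinb9c of Serpinb9h, while Serpinb9d and Serpinb9f, each the higher in 3 of 6 libraries, did not differ beyond their spread. Between the other neighbours the ranges overlapped although the order held in each of the 6 libraries. Among 16763 tested genes with a transcript length, Serpinb9 was at the 75.6th percentile and Serpinb9e at the 36.6th in control KD.

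In YBX3 KD, Serpinb9e (8.07 ± 2.52 CPM per kb, SD, n = 7) took the second place from Serpinb9b (7.45 ± 2.25), but it was the higher of the pair in 5 of 7 libraries and their ranges overlapped. Serpinb9 remained first at 21.1 ± 2.53. Its share of the family's summed level per kb was 69.2% ± 4.87 (SD, n = 6) in control KD and 50.8% ± 6.25 (SD, n = 7) in YBX3 KD. The ranges overlapped (60.38% to 73.59% and 43.84% to 62.35%). Over the same libraries the share of Serpinb9e was 8.44% ± 1.40 and 18.8% ± 2.55, with ranges that did not overlap (6.36% to 10.2% and 14.5% to 21.8%). Serpinb9g went from 3.22% ± 1.46 to 6.75% ± 2.13, and Serpinb9b from 15.2% ± 3.79 to 17.4% ± 3.19, both with overlapping ranges.

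**Figure D3:**
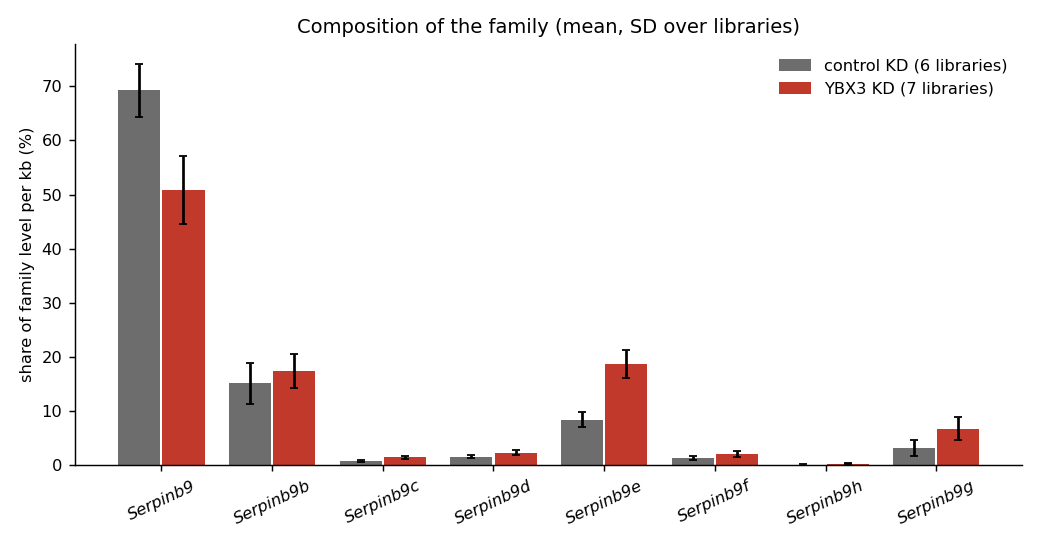
Share of each member in the summed level per kilobase of the family, in percent, as mean and SD over 6 control KD and 7 YBX3 KD libraries. The share of Serpinb9 is 69.2% in control KD and 50.8% in YBX3 KD, with overlapping ranges, and that of Serpinb9e is 8.44% and 18.8%.

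Whether the family changes when myoblasts are moved to differentiation medium was a question that did not enter the choice of members. In control KD no member passed edgeR's quasi-likelihood test from 0 day to 1 day (0 of 8, with 0% of the 16848 genes called and an adjusted p of 1.0 for all 8), and the same held in YBX3 KD (0 of 8, 0% of genes, adjusted p of 0.982 for all 8). Unadjusted p-values under 0.05 were found for 0 of 8 members in either arm of this edgeR fit without a block. With the replicate letter as a block, 0 of 8 passed after adjustment in either arm, but in control KD the unadjusted p was 0.0145 for Serpinb9g (log2 change 0.74 ± 0.25, edgeR, adjusted p = 0.627) and 0.00607 for Serpinb9h, and in YBX3 KD it was 0.0346 for Serpinb9g (-0.41 ± 0.17, edgeR, adjusted p = 0.602). Over all genes, 251 in control KD and 791 in YBX3 KD had an unadjusted p under 0.05, and DESeq2 called 0 and 2 genes, none of them a member. In control KD the estimates were a log2 change of 0.21 ± 0.12 for Serpinb9, -0.35 ± 0.39 for Serpinb9b and 1.08 ± 0.57 for Serpinb9g. In YBX3 KD all 8 estimates lay between -0.33 and 0.46, with SEs of 0.11 to 0.59. With 2 to 4 libraries per group, changes larger than these errors could also go undetected. The 1.08 ± 0.57 of Serpinb9g in control KD exceeded its SE and did not pass. In DESeq2 without a block the unadjusted p in control KD was 0.0340 for Serpinb9g and 0.00865 for Serpinb9h. With the title number as a block in edgeR it was 0.00222 for Serpinb9g and 0.0395 for Serpinb9e. Under that block in YBX3 KD, Serpinb9c had an unadjusted p of 0.0202 (edgeR). None of these passed after adjustment.

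The difference of the YBX3 KD effect between 1 day and 0 day was also tested, and 0 of 8 members passed (0% of genes; adjusted p of 1.0 for all 8; 477 genes and 0 of 8 members at an unadjusted p under 0.05; DESeq2 called 1 gene, which was no member). The steps of Serpinb9g and Serpinb9d lay on opposite sides of 1 in the 2 siRNA arms. In control KD, Serpinb9g at 1 day was 1.75 and 1.87 times its 0 day level in replicates C and D, whereas in YBX3 KD it was 0.855, 0.846 and 0.574 times in replicates B, C and D. The estimated difference was -1.41 ± 0.71 on the log2 scale (edgeR, unadjusted p = 0.0707). With the replicate letter as a block it was -1.15 ± 0.29 (edgeR, unadjusted p = 0.00319, adjusted p = 0.416), so the block left it short of the threshold. Serpinb9h, with 0 counts in control KD at 1 day, had an unadjusted p of 0.0165 and the same adjusted p under the block in edgeR. In DESeq2 without a block the unadjusted p of the difference was 0.0348 for Serpinb9g and 0.0246 for Serpinb9h. With the title number as a block it was 0.0107 for Serpinb9g (edgeR). None of these passed after adjustment. For Serpinb9d the ratios were 1.41 and 1.10 in control KD and 0.798, 0.761 and 0.732 in YBX3 KD, and the difference was -0.69 ± 0.43 (edgeR, unadjusted p = 0.139). Serpinb9b at 1 day was 0.729 and 0.610 times its 0 day level in control KD, while in YBX3 KD it was 1.01 and 1.05 times in replicates B and D and 0.434 times in replicate C.

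**Figure D4:**
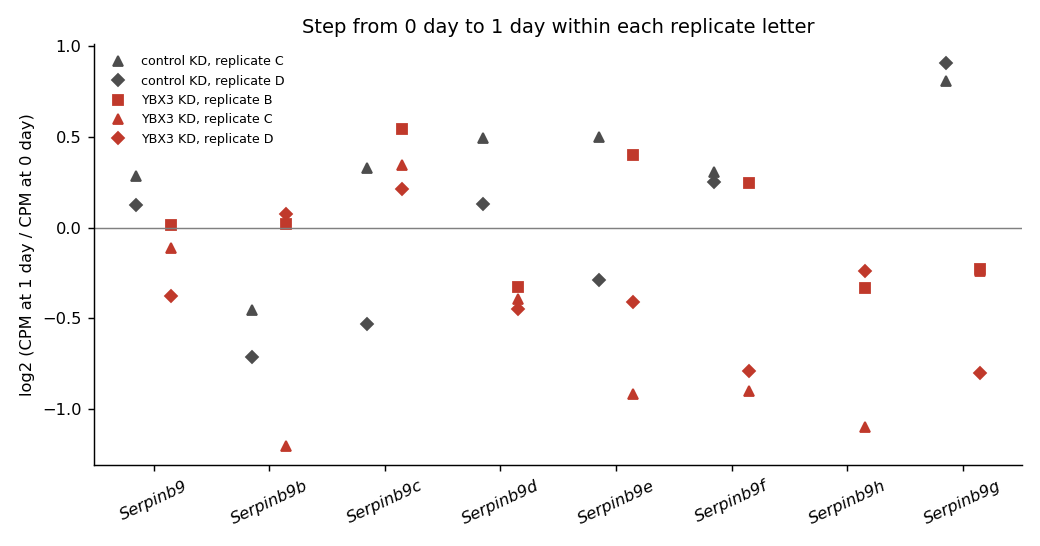
Log2 ratio of the CPM at 1 day to the CPM at 0 day within each replicate letter, for control KD (C and D) and YBX3 KD (B to D); Serpinb9h in control KD is not drawn because it was at 0 at 1 day. Serpinb9g is above 0 in both control KD pairs and below 0 in all 3 YBX3 KD pairs.

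The members varied together among libraries. Across the 13 libraries, Pearson's r of log2 CPM was 0.824 to 0.955 over the 6 pairs among Serpinb9d, Serpinb9e, Serpinb9f and Serpinb9g, and 0.568 to 0.890 over the 7 pairs of Serpinb9 with another member. After the group means were removed these ranges were 0.260 to 0.898 and 0.504 to 0.747. With Serpinb9d, Serpinb9e, Serpinb9f and Serpinb9g, the low copy Serpinb9h had r of 0.648 to 0.786. Against the same copies r was 0.851 to 0.945 for Serpinb9c and 0.755 to 0.881 for Serpinb9b. Covariation was thus not particular to the near-identical copies. Libraries share the siRNA groups and the near-identical copies share reads, so these values describe the libraries only. The 5 genes outside the family whose log2 CPM followed the mean of the members most closely were Col7a1, which encodes the anchoring-fibril collagen, Celsr1, a planar polarity cadherin, Adam8, a membrane metalloproteinase, Lamc3, a laminin chain, and Tmem62. Their r was 0.953 to 0.959 over 13 libraries and their rho 0.907 to 0.978, r without the 2 libraries farthest from the median was 0.927 to 0.963, and r after removal of the group means was 0.833 to 0.914. Adam8 averaged 42.1 ± 5.07 CPM (SD, n = 6) under control KD and 70.3 ± 15.9 CPM (SD, n = 7) under YBX3 KD.

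The promoters of the members were compared because all 8 were higher in YBX3 KD by the fit. RefSeq promoters (GRCm38.p6, 250 bases before to 50 after the start) matched all 8 members, with 2 starts for Serpinb9c. Coordinates of this older build are not those of GRCm39 used above. Promoters of Serpinb9d, Serpinb9e, Serpinb9f and Serpinb9g were 91.6% to 99.3% identical over 285 to 296 aligned bases. The promoter of the upstream Serpinb9c start was 71.2% to 72.8% identical to them over 222 to 224 bases, and Serpinb9 and Serpinb9b were 75.9% identical over 195. Serpinb9h had no alignment longer than 29 bases to any other member. Printed below, to show the shared letters beside the distinct start of Serpinb9, are 100 bases before to 20 after the start, with capitals marking TGACG and AATAAAG, which were chosen after the sequences had been read:
Serpinb9 (chr13:33004441-33004560, plus strand): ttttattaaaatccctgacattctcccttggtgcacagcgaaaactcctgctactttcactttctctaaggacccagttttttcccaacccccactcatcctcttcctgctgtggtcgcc
Serpinb9c (chr13:33159735-33159854, minus strand): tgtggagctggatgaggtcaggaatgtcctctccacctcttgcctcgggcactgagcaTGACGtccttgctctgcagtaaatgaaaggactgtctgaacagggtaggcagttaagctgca
Serpinb9d (chr13:33192855-33192974, plus strand): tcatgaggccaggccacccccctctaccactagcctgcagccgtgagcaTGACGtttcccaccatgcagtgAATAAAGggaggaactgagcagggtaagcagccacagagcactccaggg
Serpinb9e (chr13:33249508-33249627, plus strand): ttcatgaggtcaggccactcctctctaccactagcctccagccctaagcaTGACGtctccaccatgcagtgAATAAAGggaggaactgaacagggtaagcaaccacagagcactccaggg
Serpinb9f (chr13:33323977-33324096, plus strand): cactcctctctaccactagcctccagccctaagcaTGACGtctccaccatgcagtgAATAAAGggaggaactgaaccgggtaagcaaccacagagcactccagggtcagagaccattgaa
Serpinb9g (chr13:33484690-33484809, plus strand): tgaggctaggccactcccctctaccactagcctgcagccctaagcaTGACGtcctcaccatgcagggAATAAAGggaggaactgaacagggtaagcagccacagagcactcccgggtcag

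TGACG, part of the site bound by ATF and CREB factors, was found on either strand in 5 of the 9 promoters (the upstream Serpinb9c start and Serpinb9d to Serpinb9g without Serpinb9h), and in 20.8% of 32851 RefSeq promoters of this length. AATAAAG was in the promoters of Serpinb9d, Serpinb9e, Serpinb9f, Serpinb9g and Serpinb9h, with 4.81% of all promoters holding it. CCAAT, the letters after which the Y-box family of YBX3 is named, was in 1 of 9 (Serpinb9f) against 37.4%. The interferon response core GAAANNGAA was in Serpinb9 alone (8.56% of all), and the NF-kB core GGGNNTTCC in 0 of 9 (5.82%). Of the other motifs searched, the E-box CANNTG was in 4 of 9 (72.3% of all) and the GAS letters TTCNNNGAA in 1 of 9 (8.3%). The TATA box, AP-1, MEF2 and antioxidant response letters were in 0 of 9 (13.6%, 7.81%, 1.7% and 12.4%). All were searched on both strands. From 100 bases before to 20 after the start, Serpinb9b, Serpinb9h and the other Serpinb9c start, not printed above, held neither TGACG nor AATAAAG. A match says only that the letters are there.

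The proteases that the inhibitors are known for were hardly present. Of 11 genes for granzymes and perforin, 7 had a count in any library and 2 passed the filter, and 0 were called, with a summed count of 13 to 60 per library. Gzmm, a granzyme of innate lymphocytes, had 8 to 33 counts in control KD and 10 to 35 in YBX3 KD, and Gzme had 1 to 11 and 0 to 18. Prf1, which encodes perforin, had at most 7 counts, Gzmn, Gzmd and Gzmc at most 2 and Gzmk at most 1.

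Other clade B serpins, mostly inhibitors of intracellular proteases, had positive log2 fold changes in 7 of 8 tested genes, but in edgeR 0 passed the study's thresholds and 1 had an adjusted p under 0.05. That gene was Serpinb1b, a copy of the neutrophil elastase inhibitor Serpinb1, with a log2 fold change of 0.86 ± 0.19 (edgeR, adjusted p = 0.0318). Serpinb6b followed at 0.39 ± 0.10 (adjusted p = 0.0619), and the only lower gene was Serpinb8 at -0.04 ± 0.11. Their median log2 fold change was 0.53, beside 0.00 for all tested genes. Over all genes in edgeR, 0.113% passed the study's thresholds in either direction. At an adjusted p under 0.05, 1.5% were higher and 1.09% lower. These shares stand beside the counts of every gene list given here. Of the 8 tested serpins of other clades 0 had an adjusted p under 0.05 and the median was 0.32, with Serping1, the complement C1 inhibitor, at 1.75 ± 0.56 (adjusted p = 0.10) and Serpinf1, an antiangiogenic secreted serpin, at -0.25 ± 0.12 (adjusted p = 0.302). Serping1 had only 0 to 4 counts in control KD and 2 to 11 in YBX3 KD. It passed the filter on low counts through YBX3 KD alone, so a higher value there was built into its being tested, and it enters that median. Serpini1, a neuronal serpin, was at 0.33 ± 0.24 (adjusted p = 0.537) and Serpinh1, the collagen chaperone, at -0.05 ± 0.06 (adjusted p = 0.727).

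For the 10 tested neighbours within 1 Mb of the cluster, which come from other families, no gene was called. Their median log2 fold change was -0.07, with 4 positive, 6 negative and 0 at an adjusted p under 0.05. Ripk1, a kinase of inflammatory cell death, was at 0.07 ± 0.06 (adjusted p = 0.551) and Gmds, an enzyme of fucose synthesis, at -0.13 ± 0.08 (adjusted p = 0.480). The tubulin gene Tubb2a was at 0.03 ± 0.12 (adjusted p = 0.938), and Mylk4, a myosin light chain kinase, at -0.79 ± 0.33 (adjusted p = 0.251).

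NF-kB and interferon signalling, which can raise SERPINB9 in immune cells, were read from 2 lists. Of 14 tested NF-kB genes 0 had an adjusted p under 0.05 and the median was 0.03, with Tnfaip3, a feedback inhibitor of the pathway, at 0.39 ± 0.16 (adjusted p = 0.224) and Nfkb2, a subunit, at -0.11 ± 0.06 (adjusted p = 0.394). The chemokine gene Ccl7 was at 0.39 ± 0.21 (adjusted p = 0.383) and the inhibitor gene Nfkbie at -0.11 ± 0.11 (adjusted p = 0.677). Of 22 tested interferon genes 21 had positive log2 fold changes and 3 had an adjusted p under 0.05, against 1.5% of all genes, with a median of 0.34. Rsad2, an antiviral enzyme, was at 0.83 ± 0.15 (adjusted p = 0.0114) and Mx1, an antiviral GTPase, at 2.03 ± 0.39 (adjusted p = 0.0156), whereas B2m, the light chain of class I molecules, was at -0.05 ± 0.14 (adjusted p = 0.886). Counts of Mx1 were low, at 1 to 8 in control KD and 12 to 38 in YBX3 KD. Like Serping1, Mx1 passed the filter on low counts through YBX3 KD, so a higher value there was built into its being tested. It is 1 of the 3 genes counted and enters that median. The list was chosen with earlier results of these data known, so nothing is read from its count. The remaining gene under 0.05, named after its value was seen, was Tap1, a peptide transporter subunit, at 0.46 ± 0.11 (adjusted p = 0.0426). No gene of any list reached the study's thresholds in edgeR.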

How the data were processed

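RNA was sequenced from 13 libraries of C2C12 cells made with a stranded mRNA kit. The authors quantified reads with Salmon (GRCm39, Gencode M30), and the deposited values are estimated counts per gene (expected counts), whole and not normalized. The Salmon version and the rounding step are not given in the sources used here. Of 55642 identifiers, 54969 matched GENCODE vM39. Genes were kept by filterByExpr on the 4 groups (16848 genes) and scaled by TMM (factors 0.969 to 1.02). edgeR 4.0.16 in R 4.3.3 (glmQLFit with legacy=FALSE, glmQLFTest) gave fold changes with SE and Benjamini-Hochberg adjusted p-values over all genes tested, in a fit with siRNA and day for YBX3 KD against control KD and 1 coefficient per group for the rest. DESeq2 1.42.0 was an alternative here. The study's own calls came from DESeq2 with independent hypothesis weighting, which was not used here. The study's thresholds for a call were fold change over 1.3 in either direction with adjusted p under 0.001. The p-values measure the spread between these libraries.

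The members and gene lists were chosen with earlier results of these data known. Genes named were all members, Ybx3, the granzyme and perforin genes with a count, for each other list up to 2 tested genes with the smallest p in each direction, and the 5 genes most correlated with the family. To see whether letters or title numbers pair the libraries, which disagree at 1 day, residuals after removal of group means were correlated. All 16 pairs with the same letter were above 0.1 (0.117 to 0.730), against 11 of 46 with different letters and 8 of 16 with the same title number. The main fits had no block, so their p-values leave this pairing out. The letter was a block only in alternative fits, which are named as such where given. No pair of libraries was a duplicate. Sequences were read in Python 3.11.15 with Biopython, and the methods were tested on simulated counts. Alternatives were other normalizations, no filter, the legacy fit, blocks, another threshold, single days and each library left out. The sum of Serpinb9d to Serpinb9h was added after seeing the data. Proteins were not analysed here.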

Additional observations from a re-analysis of the deposited data

Results flagged for a closer look

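By Dixon's criterion (95% critical value 0.829), 3 values stood apart from the rest of their group of 4 libraries, of 16 groups examined. Serpinb9f was 3.41 CPM in YBX3 KD replicate D at 0 day, Serpinb9g was 12.3 CPM in that same library, and Serpinb9g was 1.73 CPM in control KD replicate D at 0 day. All were the highest of their group and all came from replicate D. Chance gives such a gap in about 1 in 20 groups, and Serpinb9f and Serpinb9g share reads, so these are not separate observations. Without YBX3 KD replicate D at 0 day, the log2 fold change of Serpinb9g between YBX3 KD and control KD was 1.51 rather than 1.86, and 1.90 rather than 2.44 at 0 day. With all libraries of replicate D left out it was 1.81 over both time points.

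From 0 day to 1 day, Serpinb9g and Serpinb9d were higher in each of the 2 control KD pairs and lower in each of the 3 YBX3 KD pairs. The difference was -1.41 for Serpinb9g and -0.69 for Serpinb9d on the log2 scale, and edgeR's test of it did not pass after adjustment for either.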

How the results depend on the processing

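Of 91 recomputed counts of called members, 85 stayed the same and 6 rose. For YBX3 KD against control KD the count of 0 of 8 became 6 with an adjusted p under 0.05 and no fold threshold, 4 with DESeq2, 6 with DESeq2 and the replicate letter as a block, 1 without the day term and 1 without the replicate D libraries, and leaving out single libraries gave 0 to 1. The letters pair the libraries, and with the letter or the title number as a block in edgeR the count was 0. The counts for the 2 steps from 0 day to 1 day and for the difference between them stayed at 0. The direction of every fold change between YBX3 KD and control KD was kept in all 23 fits. No step from 0 day to 1 day passed after adjustment in edgeR, and the sign changed under some settings for Serpinb9, Serpinb9b, Serpinb9e, Serpinb9f, Serpinb9g and Serpinb9h in YBX3 KD. The sign of the difference between time points changed in 1 fit each for Serpinb9b and Serpinb9c. Counts of Serpinb9c, Serpinb9d, Serpinb9f and Serpinb9h were low, and Serpinb9f to Serpinb9h depend on how reads were divided among copies.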
